A study of Mus musculus with 8 samples.

Results

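The genes described here encode 9 chains of the surface receptors for interleukin-6 (IL-6), IL-21, IL-27, IL-10, IL-12 and IL-23, cytokines that signal through STAT3 or act beside it in T cells. They were taken by gene symbol from the deposited tables: Il6ra, Il6st, Il21r, Il27ra, Il10ra, Il10rb, Il12rb1, Il12rb2 and Il23r, 9 of 25078 gene rows. All 9 were among the 12428 genes that passed the filter on low counts. Messenger RNA was sequenced in 8 libraries that hold donor T cells of irradiated BALB/c mice, taken from their spleens on day 6 after allogeneic hematopoietic cell transplantation (HCT). The T cells came from C57BL/6 donors that were wild type (WT) or STAT3KO, the latter carrying floxed Stat3 and a Cre recombinase under control of Cd4 regulatory sequences, so that Stat3 is removed in T cells from early in their development, in CD4 and CD8 cells alike. Every recipient was itself WT for Stat3 and also received T cell-depleted bone marrow from WT donors. Donor T cells were sorted as H-2Kb+ TCRb+ and either CD4+ or CD8+. Each genotype gave 2 libraries of CD4 and 2 of CD8 T cells, hence 4 groups, and each library pooled cells of several recipients. The ages of the mice were not given in the sources used here.

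Each of these receptors pairs a chain that is particular to its cytokine with a chain that several cytokines share. IL-6 binds Il6ra and IL-27 binds Il27ra, and both then engage the shared chain gp130 (Il6st); IL-21 uses Il21r with the common gamma chain (Il2rg), IL-10 uses Il10ra with Il10rb, IL-12 uses Il12rb2 with Il12rb1, and IL-23 uses Il23r with the same Il12rb1. Janus kinases attached to the chains phosphorylate them and then the STAT factors that dock there: mainly STAT3 for IL-6, IL-21, IL-10 and IL-23, STAT3 among others for IL-27, and STAT4 for IL-12. In CD4 T cells IL-6, IL-21 and IL-23 are known for Th17 and follicular helper cells, IL-12 for Th1 cells and IL-10 for restraint of inflammation.

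Stat3 read as the labels state. In CPM (counts per library total, adjusted by TMM factors) it was at 436 and 428 with STAT3 and 138 and 141 without it in CD4 T cells, and 431 and 436 against 120 and 143 in CD8 T cells, a fall of 3.09-fold in CD4 and 3.30-fold in CD8 T cells (edgeR quasi-likelihood test, Benjamini-Hochberg adjusted p = 0.000753 and 0.00536). Libraries held 20171396 to 23282757 counts. Cd4 lay between 1361 and 1602 CPM in CD4 and between 1.04 and 8.16 CPM in CD8 libraries, and Cd8a between 819 and 984 CPM in CD8 and between 1.70 and 15.996 CPM in CD4 libraries. All 5 T cell markers looked up (Cd3d, Cd3e, Cd3g, Thy1, Lck) were detected in every library. By contrast, 6 macrophage and monocyte markers summed to 14.8 to 50.2 CPM in libraries numbered 1 and 39.2 to 85.2 in those numbered 2. In each group all 6 were higher in the library numbered 2, except that 5 of 6 were in STAT3KO CD8 T cells. Cd68 gave a large part of the CD8 sums, at 37.2 to 49.3 CPM in CD8 and 8.85 to 17.2 CPM in CD4 libraries. Summed neutrophil and myeloid progenitor markers lay between 2.80 and 19.0 CPM, dendritic cell markers between 1.495 and 10.01 CPM, NK cell markers between 14.3 and 26.5 CPM (nearly all from Klrb1c) and erythroid markers between 0.05002 and 0.947 CPM, with the globin genes at 0. B cell markers summed to between 38.0 and 171 CPM, mostly from Cd22. Of the others, Cd79b lay between 0.898 and 2.47 CPM in CD4 and between 11.5 and 12.9 CPM in CD8 libraries, and Cd79a, Ms4a1 and Blk had 0 to 8 counts in any library. Because the pools of recipients, and not single mice, are the replicates, p-values measure only the spread between these libraries.

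The start of a gene can carry sites that STAT factors bind, and sites farther away were not searched. Promoters of the chains that fell in STAT3KO CD4 T cells are shown with that of Il12rb2, whose counts did not pass the test. The pattern TTCNNNGAA reads the same on either strand and is the core of STAT sites; matches are in capitals. Sequences are the 250 bases before the RefSeq start on build GRCm38.p6, 5′ to 3′ on the gene's strand (chr3:89913197-89913446, minus, for Il6ra; chr7:125603179-125603428, plus, for Il21r; chr6:67491856-67492105, minus, for Il23r; chr6:67376189-67376438, minus, for Il12rb2).
Il6ra promoter: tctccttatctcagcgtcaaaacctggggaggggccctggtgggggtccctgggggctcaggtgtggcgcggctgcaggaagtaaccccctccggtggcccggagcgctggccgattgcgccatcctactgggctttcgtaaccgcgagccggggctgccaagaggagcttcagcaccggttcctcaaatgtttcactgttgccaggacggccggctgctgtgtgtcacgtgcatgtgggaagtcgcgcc
Il21r promoter: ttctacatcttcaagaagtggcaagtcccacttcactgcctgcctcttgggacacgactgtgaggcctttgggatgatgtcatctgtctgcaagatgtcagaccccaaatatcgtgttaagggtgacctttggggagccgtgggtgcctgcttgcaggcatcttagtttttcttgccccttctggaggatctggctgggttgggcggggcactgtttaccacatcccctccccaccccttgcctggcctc
Il23r promoter: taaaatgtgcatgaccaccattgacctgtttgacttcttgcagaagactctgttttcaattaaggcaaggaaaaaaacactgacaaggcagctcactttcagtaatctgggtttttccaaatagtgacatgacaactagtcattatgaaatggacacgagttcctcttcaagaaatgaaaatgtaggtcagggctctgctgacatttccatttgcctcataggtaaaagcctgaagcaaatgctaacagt
Il12rb2 promoter: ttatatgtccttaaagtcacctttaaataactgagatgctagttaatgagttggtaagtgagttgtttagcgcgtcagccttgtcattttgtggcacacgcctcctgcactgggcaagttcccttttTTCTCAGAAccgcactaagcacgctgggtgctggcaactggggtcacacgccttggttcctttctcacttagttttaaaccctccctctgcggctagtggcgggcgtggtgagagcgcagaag

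Il12rb2 held 1 match, TTCTCAGAA, whose first base lies at position -123 from the start. Il6ra, Il21r, Il23r and Il6st held none in the window of 300 bases that also includes the 50 after the start, and the RefSeq table matched 5 of the 9 chains. The pattern occurs in 8.30% of 32851 promoters of that length. The Il23r promoter is poor in G and C, at 39.6% with 1 CpG, where Il6ra has 65.2% with 18 CpG and the median promoter 52.4% with 6 CpG. A match is a run of letters, and binding was not measured.

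By the deposited tables (mm10), Il6ra lies on the minus strand at chr3:89869324-89913196, Il6st on the plus strand at chr13:112464070-112506860 and Il21r on the plus strand at chr7:125603429-125633570. Il27ra (minus, chr8:84030286-84042575) and Il12rb1 (plus, chr8:70808449-70821423) are both on chromosome 8, and Il10ra (minus, chr9:45253837-45269149) and Il10rb (plus, chr16:91406235-91425834) lie on separate chromosomes. Il12rb2 (minus, chr6:67292018-67376188) and Il23r (minus, chr6:67422932-67491855) are neighbours on chromosome 6, separated by 46743 bases. All 9 are protein coding, and reads were counted over their exons. GENCODE M21 places exon bases of another gene within those of 4 chains: 242 bases of Gm42809 in Il6ra, 2 of Palm3 in Il27ra and 569 of Gm21970 in Il10rb, and in Il12rb2 1519 of Serbp1, a gene at 770 to 1043 CPM. In the deposited annotation, the spans of Serbp1 and Il12rb2 share 0 bases. Gm42809, Palm3 and Serbp1 lie on the strand opposite to their chains. Whether counting used strand was not given in the sources used here, so the counts of Il6ra, Il27ra and Il12rb2 are uncertain to that extent. Gm21970 lies on the same strand as Il10rb, so the Il10rb counts are uncertain with either way of counting.

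Levels per length differed widely among the chains. In WT CD4 T cells the deposited RPKM (reads per exon length and sequencing depth) averaged 60.4 for Il27ra, 51.1 for Il21r, 49.5 for Il12rb2, 44.3 for Il6ra and 42.1 for Il6st, then 25.1 for Il10ra, 23.7 for Il10rb and 18.8 for Il12rb1, and 2.84 for Il23r. The first 5 overlapped their neighbours in the order over the 2 libraries, as did the next 3, so that these values form an upper group, a middle group and Il23r alone.

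**Figure D1:**
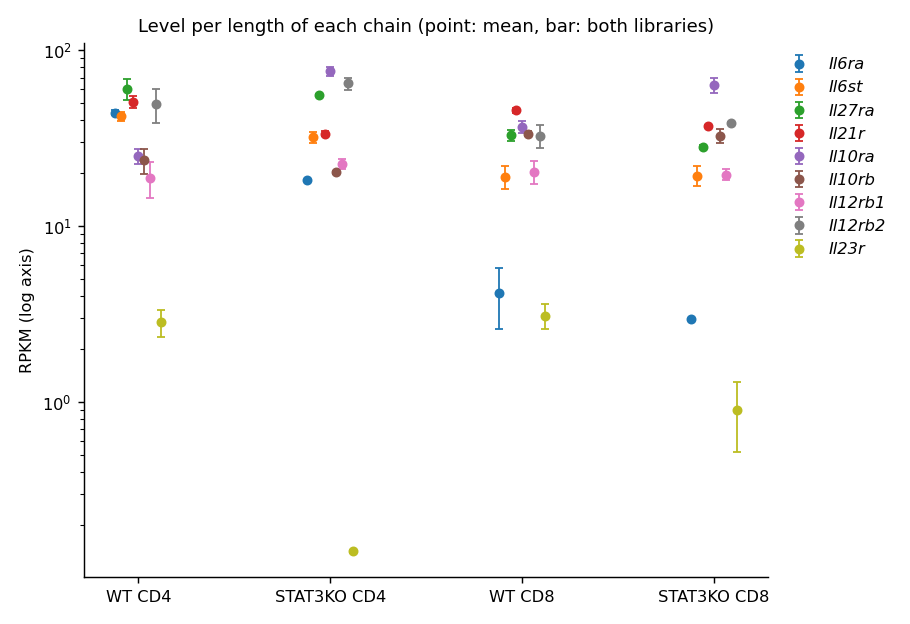
Deposited RPKM on a log axis of each receptor chain in the 4 groups, with the mean as a point and both libraries as the ends of the bar. Il10ra stands at the top in both STAT3KO groups (75.9 and 63.4), and Il23r at the bottom in every group.

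The order changed between the groups. In STAT3KO CD4 T cells Il10ra came first at 75.9 RPKM, above Il12rb2 at 65.0 and Il27ra at 56.0, with no overlap between these neighbours, while Il6ra stood eighth at 18.2. In WT CD8 T cells Il21r led at 45.5 RPKM, followed by Il10ra, Il10rb, Il27ra and Il12rb2 between 32.7 and 36.8, whose libraries overlapped. In STAT3KO CD8 T cells Il10ra led again at 63.4, with Il12rb2 at 38.8 and Il21r at 37.2. Il6ra (4.18 and 2.95 RPKM) and Il23r (3.10 and 0.906 RPKM) were the lowest in WT and STAT3KO CD8 T cells.

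**Figure D2:**
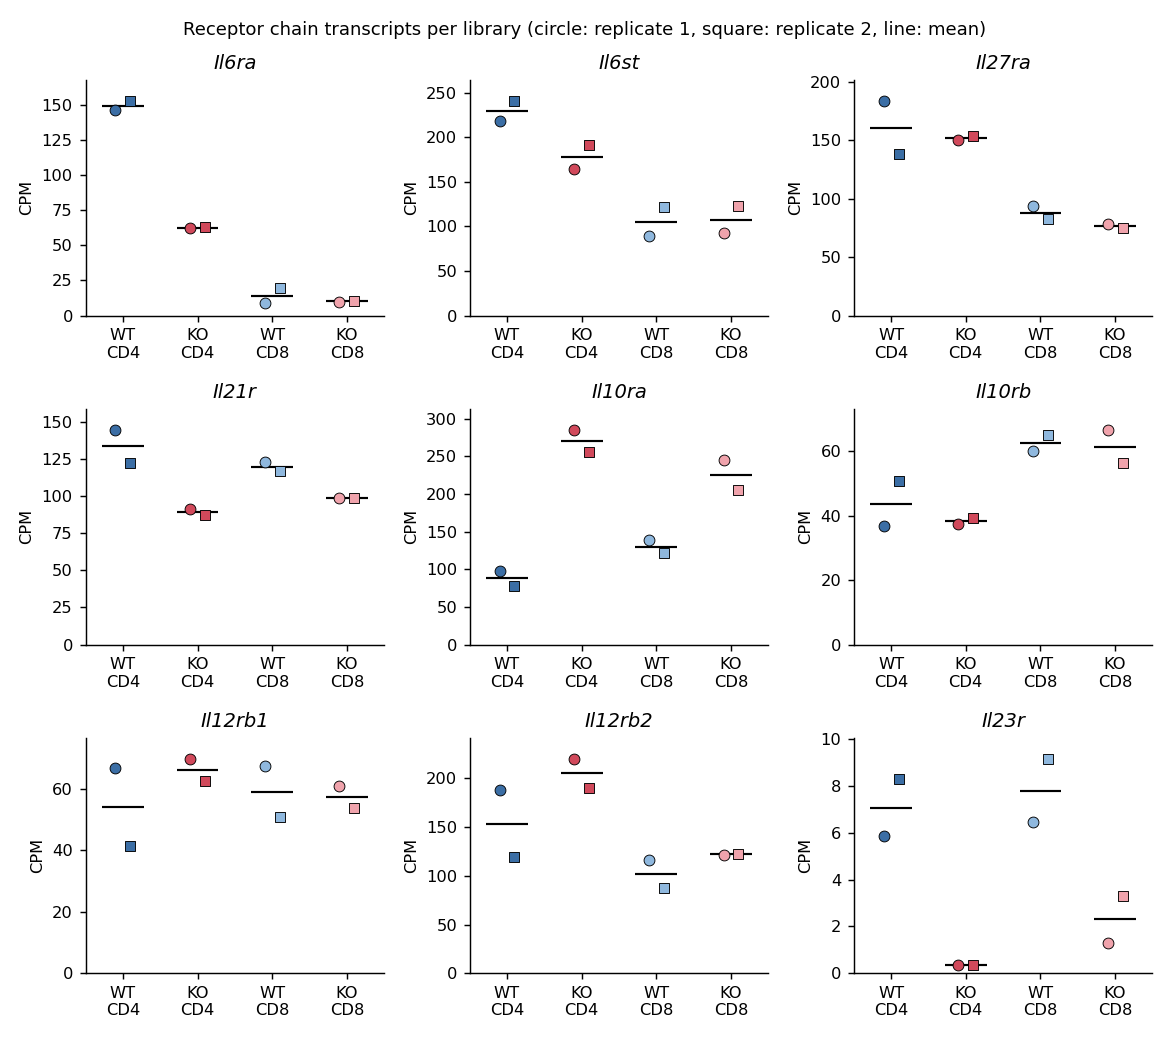
TMM-scaled CPM of the 9 receptor chains, with a panel per gene and its own axis from 0; circles are libraries numbered 1, squares those numbered 2, and the line is the group mean. Il10ra is higher in all 4 STAT3KO libraries than in any WT library, and Il23r is lower in all 4.

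STAT3KO was compared with WT in CD4 T cells to ask how the receptors stand when STAT3 is missing. The paper describes severe, fatal acute graft-versus-host disease in hosts of WT T cells. In hosts of STAT3KO T cells it describes mild, transient disease near day 7, and for its spleen comparison it calls them free of the disease. In both cell types, loss of STAT3 in the donor cells and the state of the host therefore cannot be told apart. Of the 9 chains, 4 passed the test: Il10ra rose, and Il6ra, Il21r and Il23r fell. Over all genes tested, 11.6% were called in this comparison, 6.54% as higher and 5.08% as lower. The median log2 fold change of the 9 chains was -0.19, beside 0.017 over all genes. In bulk RNA, fewer cells of a type and less RNA per cell cannot be told apart.

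Il10ra, the chain that binds IL-10, stood at 97.4 and 78.4 CPM in WT CD4 and at 285 and 256 CPM in STAT3KO CD4 T cells. Every STAT3KO library was above every WT library, by 3.08-fold on average (log2 fold change 1.62, SE 0.15, adjusted p = 0.00142). The change held its call with any library left out (adjusted p up to 0.0155). Its partner Il10rb, shared with the receptors of IL-22 and interferon lambda, was at 36.7 and 50.7 CPM in WT and 37.3 and 39.3 CPM in STAT3KO CD4 T cells, with overlapping groups (log2 fold change -0.19, 95% interval -0.57 to 0.20).

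Il6ra, the IL-6 binding chain, had 146 and 153 CPM in WT CD4 and 62.3 and 63.0 CPM in STAT3KO CD4 T cells. The replicates of each group lay close together, and the level fell 2.39-fold (log2 fold change -1.25, SE 0.29, adjusted p = 0.0319). Its spread is set by all groups together, and the call was lost without any of the 4 CD4 libraries (adjusted p 0.0642 to 0.1501), at log2 fold changes of -1.31 to -1.23. Il6st (gp130) had 219 and 240 CPM in WT and 164 and 191 CPM in STAT3KO CD4 T cells. Those groups did not overlap, but the difference did not pass the test (log2 fold change -0.37, 95% interval -0.81 to 0.07, adjusted p = 0.255).

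Il21r, the IL-21 binding chain, was at 144 and 122 CPM in WT CD4 and 91.3 and 87.3 CPM in STAT3KO CD4 T cells, a fall of 1.49-fold (log2 fold change -0.58, SE 0.11, adjusted p = 0.0141). The call was lost without STAT3KO CD4 replicate 1 (adjusted p = 0.0741) or 2 (0.109). Il27ra, the IL-27 binding chain that pairs with gp130, stood at 183 and 138 CPM in WT and 150 and 153 CPM in STAT3KO CD4 T cells. The STAT3KO values fell inside the WT range (log2 fold change -0.08, 95% interval -0.41 to 0.25).

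Il23r, the IL-23 binding chain and a marker of Th17 cells, was the chain with the greatest fold change. It was counted 117 and 175 times in WT CD4 and 7 and 8 times in STAT3KO CD4 libraries, or 5.84 and 8.27 against 0.350 and 0.366 CPM. The exact Poisson 95% intervals of the STAT3KO counts, which cover counting error only, were 2.81 to 14.4 and 3.45 to 15.8, and those of WT began at 96.8. The fall was 19.4-fold (log2 fold change -4.28, SE 0.52, adjusted p = 0.00310), and the call held with any library left out. On the log2(RPKM + 1) scale, which shrinks changes of low genes, it was -1.74.

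The chains of the IL-12 receptor did not pass the test in CD4 T cells. Il12rb2, the chain particular to IL-12 and a marker of Th1 cells, had 188 and 119 CPM in WT and 220 and 190 CPM in STAT3KO CD4 T cells. The groups lay side by side without overlap (log2 fold change 0.42, 95% interval -0.10 to 0.93, adjusted p = 0.272). Il12rb1, which IL-12 and IL-23 share, was at 66.8 and 41.3 CPM in WT and 69.7 and 62.7 CPM in STAT3KO CD4 T cells, with overlapping groups (log2 fold change 0.29, 95% interval -0.24 to 0.83). In all, groups did not overlap for 2 chains that were higher and 4 that were lower in STAT3KO CD4 T cells, while over all genes tested this was so for 28.5% and 25%.

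In CD8 T cells, STAT3KO against WT gave 1 called chain, Il10ra, beside 2.07% of all genes called (1.34% as higher and 0.732% as lower). Il10ra stood at 138 and 121 CPM in WT CD8 and 245 and 205 CPM in STAT3KO CD8 T cells, 1.74-fold higher (log2 fold change 0.80, SE 0.15, adjusted p = 0.0457). The groups did not overlap. The call was lost without any of WT CD8 replicate 1 (adjusted p = 0.108), WT CD8 replicate 2 (0.292), STAT3KO CD8 replicate 1 (0.212) or STAT3KO CD8 replicate 2 (0.135), at log2 fold changes of 0.66 to 0.91, and also when only the CD8 libraries were fitted (0.0847). The macrophage marker sums were higher in the libraries numbered 2, where Il10ra was the lower of each pair. That contrast is between replicate numbers and not genotypes, and the part of such cells in the Il10ra values was not tested. The log2 ratio of STAT3KO to WT CPM of Il10ra was 0.83 between the CD8 libraries numbered 1 and 0.76 between those numbered 2. In CD4 T cells it was 1.55 and 1.71.

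**Figure D3:**
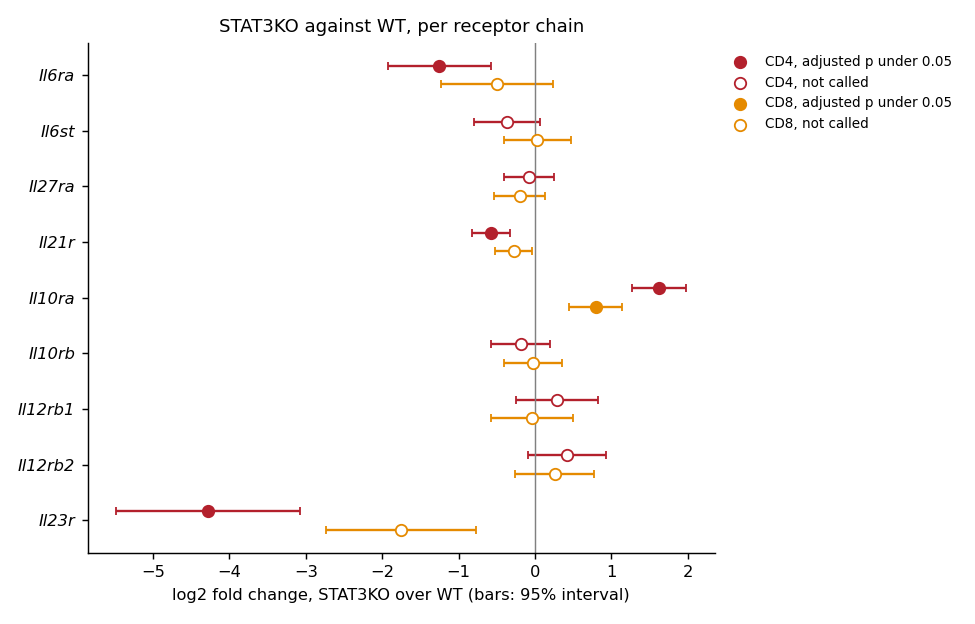
Log2 fold change of STAT3KO over WT for each chain in CD4 (red) and CD8 (orange) T cells, with 95% intervals from the edgeR fit; filled points passed an adjusted p of 0.05. Il10ra is filled in both, while Il6ra, Il21r and Il23r are filled in CD4 T cells.

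Il23r was counted 149 and 217 times in WT CD8 and 27 and 73 times in STAT3KO CD8 libraries, or 6.44 and 9.14 against 1.30 and 3.29 CPM. Both STAT3KO values were below all WT values, yet the difference did not pass the test (log2 fold change -1.75, SE 0.42, adjusted p = 0.0811). The 2 STAT3KO libraries differed beyond counting error, with Poisson 95% intervals of 17.8 to 39.3 and 57.2 to 91.8 counts. DESeq2 called it (adjusted p = 0.00576), as did the fit without the filter on low counts (0.0232).

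The other chains did not pass the test in CD8 T cells. Il21r was at 123 and 117 CPM in WT and 98.6 and 98.5 CPM in STAT3KO CD8 T cells, without overlap (log2 fold change -0.28, 95% interval -0.52 to -0.04, adjusted p = 0.204). Il27ra was at 93.7 and 82.2 against 77.9 and 74.9 CPM, also without overlap (log2 fold change -0.20, adjusted p = 0.506). Il6ra was low, at 8.77 and 19.8 CPM in WT and 10.0 and 10.2 CPM in STAT3KO CD8 T cells.

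WT CD8 replicate 2 alone set the direction of Il6ra in CD8 T cells: the log2 fold change was -0.50 with it, 0.20 without it, and -0.98 (adjusted p = 0.04996) without WT CD8 replicate 1. WT CD8 replicate 2 also held the highest macrophage and monocyte marker sum of all libraries, 85.2 CPM. Cd68 gave 49.3 CPM of that sum, and it was at 37.2 CPM or more in every CD8 library. STAT3KO CD8 replicate 2 had a sum of 78.9 CPM, with Il6ra at 10.2 CPM. The part of such cells in the Il6ra values was not tested. Il6st (89.0 and 122 in WT, 92.5 and 123 in STAT3KO), Il10rb (60.0 and 65.1, 66.6 and 56.3) and Il12rb1 (67.3 and 50.7, 60.9 and 53.9 CPM) overlapped between the genotypes. Il12rb2 was at 116 and 87.4 CPM in WT and at 122 CPM in both STAT3KO CD8 libraries (log2 fold change 0.26, 95% interval -0.26 to 0.77). Groups did not overlap for 2 chains that were higher and 3 that were lower, beside 24.9% and 24.8% of all genes.

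Whether the STAT3KO effect differed between CD8 and CD4 T cells was tested as an interaction. In the fit of group means, without a replicate block, none of the 9 chains was called by the edgeR quasi-likelihood test, and neither was any other gene (0 of 12428, or 0%), with 982 genes at an unadjusted p under 0.05 and a smallest adjusted p of 0.0916. Of the chains, 2 had an unadjusted p under 0.05. The rise of Il10ra was smaller in CD8 T cells by 0.83 on the log2 scale (95% interval of the difference -1.32 to -0.33, adjusted p = 0.299), and the fall of Il23r was smaller by 2.52 (0.98 to 4.07, adjusted p = 0.312).

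DESeq2 called 188 genes in this test, among them Il10ra (adjusted p = 0.0293) and Il23r (0.0424), and limma on RPKM called 13 genes and the fit without a filter 44, with no receptor chain among them. For the other chains the difference lay between -0.33 for Il12rb1 and 0.76 for Il6ra (95% interval -0.24 to 1.75). The intervals of Il6st (-0.22 to 1.02), Il21r (-0.05 to 0.64) and Il12rb2 (-0.89 to 0.57) all include 0 and leave room for differences of some size.

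The next comparison set CD8 beside CD4 T cells of the same genotype. In WT T cells 4 chains passed the test, with Il6ra, Il6st and Il27ra lower and Il10ra higher in CD8 T cells, beside 23.8% of all genes called (12.2% as higher and 11.6% as lower). Il6ra was 10.5-fold lower (log2 fold change -3.39, SE 0.32, adjusted p = 0.000388). Il6st was 2.18-fold lower (log2 fold change -1.12, SE 0.19, adjusted p = 0.00475) and Il27ra 1.83-fold lower (log2 fold change -0.87, SE 0.14, adjusted p = 0.00416). These are the chains that bind IL-6 and IL-27 and the gp130 chain they share.

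Cd4 in the CD8 libraries was 0.0736% to 0.514% of its mean in CD4 libraries of the same genotype. The same shares of the CD4 Il6ra level equal 0.0646 to 0.702 CPM, beside 8.77 to 19.8 CPM measured in the CD8 libraries. The part of CD4 T cells in those Il6ra values was not tested. The library numbered 2 had the higher Il6st value in each of the 4 groups, as it had the higher macrophage and monocyte marker sum, and the part of such cells in Il6st was not tested. Between the WT libraries numbered 1, Il6st was lower in CD8 T cells by a log2 ratio of -1.30, and between those numbered 2 by -0.98.

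Il10ra was 1.48-fold higher in CD8 than in CD4 T cells of WT origin (log2 fold change 0.56, SE 0.15, adjusted p = 0.0317), a call lost without WT CD4 replicate 2 (adjusted p = 0.166), WT CD8 replicate 1 (0.179) or WT CD8 replicate 2 (0.0544). Il10rb was higher (log2 fold change 0.52) and Il12rb2 lower (-0.59) in WT CD8 T cells without passing the test (adjusted p = 0.0570 and 0.0978). DESeq2 called both (adjusted p = 0.0277 and 0.0359), as did the fit without the filter on low counts (0.0486 and 0.0468). Both passed without WT CD4 replicate 2 (adjusted p = 0.0177 and 0.0187). Il21r, Il12rb1 and Il23r had log2 fold changes of -0.16, 0.13 and 0.14, with overlapping groups. The groups did not overlap for 2 chains that were higher and 4 that were lower in WT CD8 T cells, beside 29.2% and 30% of all genes.

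**Figure D4:**
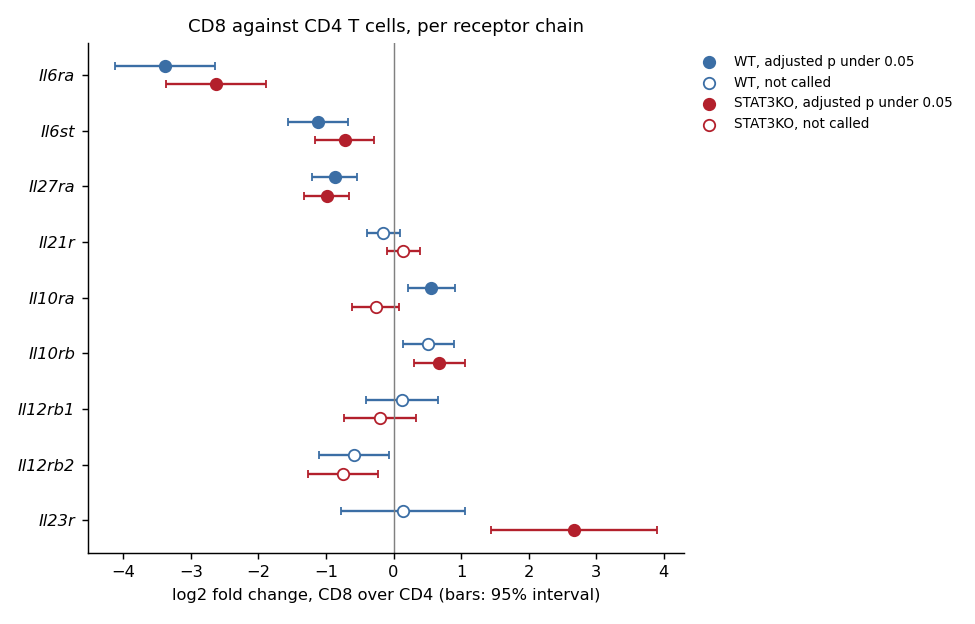
Log2 fold change of CD8 over CD4 T cells for each chain in WT (blue) and STAT3KO (red), with 95% intervals from the edgeR fit; filled points passed an adjusted p of 0.05. Il6ra, Il6st and Il27ra are filled and negative in both genotypes, and Il23r is filled in STAT3KO.

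Among STAT3KO T cells 5 chains passed the test, beside 12.5% of all genes called (5.84% as higher and 6.67% as lower). Il6ra (6.19-fold, log2 fold change -2.63, adjusted p = 0.00270), Il6st (1.65-fold, -0.72, adjusted p = 0.0457) and Il27ra (1.99-fold, -0.99, adjusted p = 0.00538) were lower in CD8 T cells. Il10rb was 1.60-fold higher (log2 fold change 0.68, adjusted p = 0.0362) and Il23r 6.35-fold higher (2.67, SE 0.53, adjusted p = 0.0173). Il10ra had a log2 fold change of -0.26 (adjusted p = 0.303). All 9 chains separated CD8 from CD4 libraries here without overlap, 3 as higher and 6 as lower, beside 29.6% and 28.7% of all genes. The comparisons share libraries with those of STAT3KO against WT, so their values are set side by side only.

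The calls of Il6st and Il10rb were lost without any of the 4 STAT3KO libraries: adjusted p was 0.115 and 0.192 without CD4 replicate 1, 0.185 and 0.143 without CD4 replicate 2, 0.215 and 0.193 without CD8 replicate 1, and 0.0604 and 0.0781 without CD8 replicate 2, all of STAT3KO. That of Il23r was lost without STAT3KO CD4 replicate 1 (0.111), STAT3KO CD4 replicate 2 (0.105) or STAT3KO CD8 replicate 2 (0.0698), and its log2 fold change lay between 1.84 without STAT3KO CD8 replicate 2 and 3.17 without STAT3KO CD8 replicate 1. Il12rb2 was 1.68-fold lower in CD8 T cells without passing the test (adjusted p = 0.0688), and it passed by DESeq2 (0.00875).

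Because a receptor needs both of its chains, the RPKM of each cytokine's own chain was set over that of its partner within each library. Il6ra over Il6st in CD4 T cells was 1.08 and 1.03 (WT) and 0.613 and 0.531 (STAT3KO), and in CD8 T cells 0.159 and 0.262 (WT) and 0.175 and 0.134 (STAT3KO). The RPKM of Il6ra was thus level with that of Il6st in WT CD4 T cells and below it elsewhere. Such ratios depend on the exon lengths used, here 3377 bases for Il6ra and 5452 for Il6st. GENCODE M21 gives 8642 and 11099 exon bases. Protein was not measured in these libraries. Il10ra over Il10rb in CD4 T cells was 1.40 and 0.819 (WT) and 4.04 and 3.44 (STAT3KO), and in CD8 T cells 1.22 and 0.984 (WT) and 1.95 and 1.92 (STAT3KO). In both cell types the STAT3KO ratios stood above the WT ratios.

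Il23r over Il12rb1 in CD4 T cells was 0.101 and 0.231 (WT) and 0.00580 and 0.00674 (STAT3KO), and in CD8 T cells 0.1104 and 0.208 (WT) and 0.0247 and 0.0706 (STAT3KO). Il12rb2 over the same Il12rb1 in CD4 T cells was 2.61 and 2.67 (WT) and 2.93 and 2.82 (STAT3KO), and in CD8 T cells 1.61 and 1.60 (WT) and 1.86 and 2.11 (STAT3KO). The RPKM of Il12rb2 thus exceeded that of Il23r in every library. Il27ra over Il6st ranged from 1.18 to 2.16 over all libraries. Il21r over Il2rg, the common gamma chain that many other receptors also use, was 0.123 and 0.107 in WT CD4 and 0.0746 and 0.0636 in STAT3KO CD4 T cells.

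**Figure D5:**
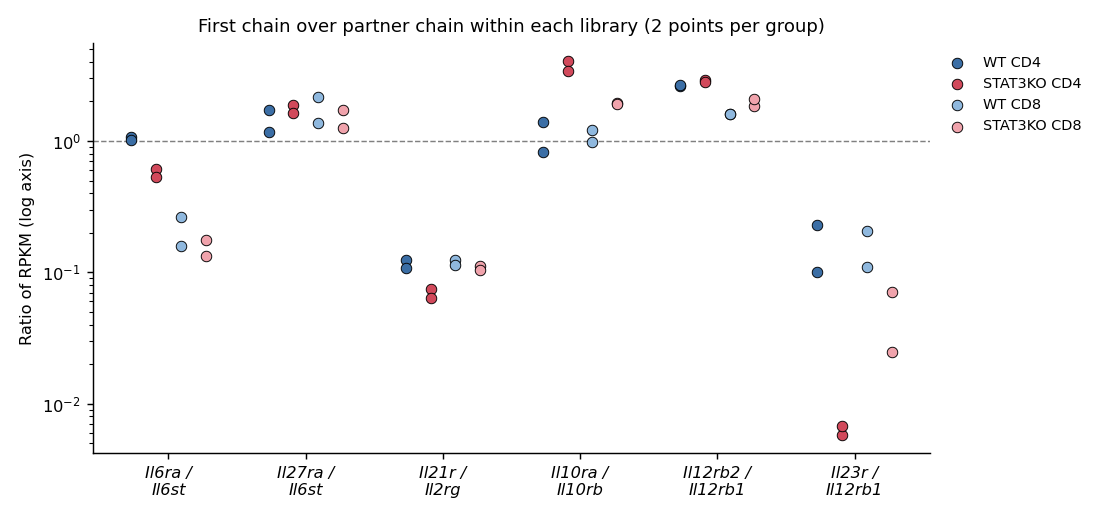
Ratio of the RPKM of a cytokine's own chain to that of its partner in each library, on a log axis with 2 points per group and a dashed line at 1. Il10ra over Il10rb is above 1.9 in all STAT3KO libraries, and Il23r over Il12rb1 is lowest in STAT3KO CD4 T cells (0.00580 and 0.00674).

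Of 8 ligand genes of these receptors, 4 passed the filter. In STAT3KO CD4 T cells 1 rose and 1 fell, beside 6.54% and 5.08% of all genes tested. The median log2 fold change of the tested ligands was 1.35 in CD4 and 0.30 in CD8, that of the partner chains, kinases and inhibitors described next 0.55, -0.17 and 0.048 in CD4 and -0.28, 0.17 and -0.067 in CD8, and that of all genes 0.017 and -0.0071. Il10 was at 64.0 and 38.2 CPM in WT CD4 and 140 and 150 CPM in STAT3KO CD4 T cells (2.83-fold, adjusted p = 0.0178), and at 53.9 and 31.6 against 104 and 88.2 CPM in CD8 T cells, where it did not pass (adjusted p = 0.0897). The transcripts of IL-10 and of its binding chain were thus both higher in STAT3KO CD4 T cells. Il21 was at 222 and 185 CPM in WT CD4 and 131 and 120 CPM in STAT3KO CD4 T cells (1.62-fold lower, adjusted p = 0.0107).

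In CD8 T cells Il21 fell from 18.2 and 19.0 to 8.54 and 9.34 CPM (2.08-fold, adjusted p = 0.0155). Il21 shares 469 exon bases with Gm12534 on the other strand. Ebi3, the subunit of IL-27 with no cytokine fold, had 3.99 and 2.55 CPM in WT and 7.65 and 9.78 CPM in STAT3KO CD4 T cells without passing (adjusted p = 0.104). Il6 had 3 to 16 counts per library. Il27, Il12a, Il12b and Il23a did not pass the filter, and their products are known chiefly from antigen-presenting cells.

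Among 15 partner and related chains, 11 were tested. Of these, 3 rose and 1 fell in STAT3KO CD4 T cells, beside 6.54% and 5.08% of all genes tested. Il2rb, the beta chain for IL-2 and IL-15, rose 1.88-fold (822 and 735 to 1434 and 1484 CPM, adjusted p = 0.00217), and Il15ra, which presents IL-15, rose 1.46-fold (adjusted p = 0.0233). Il31ra, a relative of gp130, rose from 5 and 4 to 55 and 50 counts (adjusted p = 0.00263). Il4ra, the IL-4 binding chain, fell 2.10-fold (139 and 181 to 75.5 and 76.7 CPM, adjusted p = 0.00711), and shares 571 exon bases with Gm44876. None of the 11 was called in CD8 T cells, beside 2.07% of all genes tested. There 4 had an unadjusted p under 0.05, and Il4ra stood at an adjusted p of 0.0654.

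Of the 4 Janus kinases, Jak3, which serves the common gamma chain, fell in STAT3KO CD4 T cells (272 and 195 to 137 and 109 CPM, 1.90-fold, adjusted p = 0.0266). In CD8 T cells it was at 210 and 158 against 98.4 and 92.3 CPM (adjusted p = 0.0635). Jak1, Jak2 and Tyk2, which serve gp130 and the IL-10, IL-12 and IL-23 receptors, did not pass, with log2 fold changes in CD4 of -0.0029, -0.33 and 0.53 and in CD8 of 0.26, 0.19 and 0.16. Jak3 shares 404 exon bases with Insl3.

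Among the STAT genes, Stat5a, which acts behind IL-2 and IL-7, fell in CD4 (185 and 209 to 81.3 and 77.3 CPM, 2.49-fold, adjusted p = 0.000806) and did not pass in CD8 (adjusted p = 0.0596); it shares 72 exon bases with Stat3 on the other strand. Stat4, the main factor of IL-12, had log2 fold changes of 0.12 and 0.30 in CD4 and CD8, and Stat2, Stat5b and Stat6 were not called in either.

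Of 14 inhibitors of these pathways, 3 fell and 1 rose in STAT3KO CD4 T cells, beside 5.08% and 6.54% of all genes tested. Socs3, which binds gp130 and is itself induced by STAT3, fell from 369 and 367 to 98.6 and 136 CPM (3.13-fold, adjusted p = 0.00474), and in CD8 T cells from 163 and 206 to 56.0 and 82.4 CPM (2.66-fold, adjusted p = 0.0292). Socs1 fell 1.83-fold (adjusted p = 0.0347) and the phosphatase gene Ptpn1 1.68-fold (adjusted p = 0.0132), and Socs5 rose 1.66-fold (adjusted p = 0.0362), all in CD4. Socs3 was the inhibitor called in CD8 T cells, where 2.07% of all genes tested were called.

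Genes whose log2 CPM ran closest to that of a called chain over the 8 libraries were picked by Pearson r among 8758 genes whose log2 CPM averaged at least 3. They were Insr, Akap8l and Abcg1 for Il6ra (r = 0.994, 0.994 and 0.993), Ephx1, Hpcal1 and Chd1 for Il6st (0.994, 0.991 and 0.987), and Dcaf5, Egr3 and Fbxl17 for Il27ra (0.987, 0.987 and 0.985). For Il21r they were 1700052K11Rik, Vmac and Ipo4 (0.988, 0.979 and 0.973), and for Il10ra Rexo5, Rnf168 and Eya3 (0.991, 0.984 and 0.978). Ccz1, Suclg2 and Ddx46 ran closest to Il10rb (0.984, 0.978 and 0.975), and Setbp1, Slc30a4 and Ppp2r3a to Il23r (0.986, 0.977 and 0.976). The 8 points share their groups and libraries, and the values are a description.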

How the data were processed

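Messenger RNA of 8 libraries was measured. The authors aligned reads to mm10 with STAR, counted reads per RefSeq gene with HTSeq, and deposited raw counts and RPKM values for 25078 genes; the library size behind the deposited RPKM values was 0.989 to 1.05 times the column total of the counts. The growth and treatment texts of the labels describe a cultured cell line and were not used. Libraries were grouped by genotype and cell type labels. Low genes were removed with filterByExpr (10 as the minimum count), TMM factors were applied, and a single model with 4 group means and no covariate was fitted to the 8 libraries (edgeR 4.0.16, R 4.3.3). Calls were made by the two-sided quasi-likelihood test at a Benjamini-Hochberg adjusted p under 0.05 over 12428 genes. Standard errors and 95% intervals derive from the F statistic. A library in which a gene has no count could hold up to 3 counts, which is 0.129 to 0.149 CPM; such limits cover counting error only. The fit was tested on simulated data.

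The genes named were the 9 chains, Stat3, Cd4, Cd8a, Cd8b1, every ligand, Janus kinase and STAT gene, genes of the other pathway lists (partner and related chains, inhibitors, helper cell genes) that were called in a STAT3KO comparison, and the 3 genes most like each called chain. The members and lists were chosen with earlier results of these data known. The results of some listed genes are not reported here. Alternatives were DESeq2 1.42.0, RLE size factors, no filter, a replicate block, only the libraries of a comparison, limma 3.58.1 on log2(RPKM + 1), and leaving out each library.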

Additional observations from a re-analysis of the deposited data

How the results depend on the processing

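Genes called in STAT3KO against WT CD4 T cells numbered 1444, and 412 to 1116 without one library; in CD8, 257, with 885 by DESeq2, 454 without a filter, 37 with only the CD8 libraries and 7 to 34 without one library. For the difference, 0 became 188 by DESeq2, 44 without a filter and 13 by limma. In CD8 against CD4, WT gave 2960 (1919 with only its libraries, 1546 to 2297 without one) and STAT3KO 1555 (457 to 645 without one). Receptor chains called numbered 4 in CD4 (2 to 3 without one library), and 1 in CD8, which became 2 by DESeq2 and without a filter and 0 with only the CD8 libraries and by limma. Without one CD8 library Il10ra was never called, and the chains called numbered 0 to 1, the 1 being Il6ra without WT CD8 replicate 1. For the difference, 0 chains became 2 by DESeq2. For CD8 against CD4 the chains called numbered 4 in WT (3 to 5 without one library) and 5 in STAT3KO (2 to 3).

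Replicate numbers are shared between the groups, but the labels name no common batch, and each comparison has 2 pairs. Deviations from the group means correlated between same-numbered libraries at 0.480 to 0.810 over 8758 genes. With the replicate block, 3747 genes were called in CD4, 2258 in CD8, 403 for the difference, 5232 in WT and 3689 in STAT3KO CD8 against CD4, and 6, 3, 2, 6 and 7 receptor chains. The block added Il6st and Il12rb2 in CD4, Il21r and Il23r in CD8, and Il10ra (adjusted p = 0.00475) and Il23r (0.0164) for the difference, and in CD8 against CD4 Il10rb and Il12rb2 in WT and Il10ra and Il12rb2 in STAT3KO.

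Log2 fold changes changed sign without one library only for chains that were not called. In CD4 these were Il27ra (-0.28 to 0.11), Il10rb (-0.43 to 0.053) and Il12rb1 (-0.022 to 0.65), and in CD8 Il6ra (-0.98 to 0.20), Il6st (-0.20 to 0.27), Il10rb (-0.15 to 0.078) and Il12rb1 (-0.24 to 0.17). For the difference they were Il27ra (-0.33 to 0.077), Il10rb (-0.080 to 0.39) and Il12rb2 (-0.52 to 0.14), and in WT CD8 against CD4 Il12rb1 (-0.19 to 0.50) and Il23r (-0.14 to 0.40). By limma, Il23r in STAT3KO CD8 against CD4 was no longer called (log2 difference 0.71, adjusted p = 0.0938), nor was Il10ra in WT with only those libraries (0.0605). In CD8 against CD4, DESeq2 and the fit without a filter each called 6 chains in WT and 6 in STAT3KO. They added Il10rb and Il12rb2 in WT and Il12rb2 in STAT3KO. RLE size factors changed no call of a receptor chain, and RPKM rescaled by TMM moved 0 ranks. The causes were not tested.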

Other observations

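Some helper cell genes also differed in STAT3KO CD4 T cells. Eomes, a T-box factor of cytotoxic cells, rose from 3.74 and 2.27 to 13.5 and 11.0 CPM (4.08-fold, edgeR adjusted p = 0.00551). The Th17 cytokine Il17a was counted 26 and 25 times in WT and 0 and 1 times in STAT3KO CD4 libraries (adjusted p = 0.0178). Il22 was counted 74 and 21 against 1 and 2 times (adjusted p = 0.0138), and Il17f 9 and 16 against 2 and 1 times (adjusted p = 0.0330). Since 3 counts or fewer of these cytokine genes were left in every STAT3KO CD4 library, no fold change is given. In CD8 T cells Il17a fell from 233 and 112 to 21 and 6 counts (adjusted p = 0.0412). Il23r thus stood beside Il17a, Il17f and Il22 among the low genes that fell in STAT3KO CD4 T cells.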
